A study of Mus musculus with 10 samples.

Results

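The mitochondrial genome is a small circular DNA that encodes subunits of the respiratory chain, the RNAs of the mitochondrial ribosome and a set of transfer RNAs. Its transcripts were taken here as all genes of the deposited expression table whose symbol starts with mt-, which gave 15 of 31285 genes: 12 protein coding mRNAs, 2 ribosomal RNAs and 1 transfer RNA. All 15 passed the filter for testing, and the other 22 mitochondrial genes of the GENCODE M21 annotation were not analysed here. RNA sequencing was done on inguinal (subcutaneous) white adipose tissue of mice aged 20 months, kept on regular chow, in 2 groups of 5 libraries. The first group is Ad-GHRKO, in which the series title places a knockout of GHR (the growth hormone receptor) in adipose tissue specifically, and whose genotype the sample labels give as GHR Knockdown. The second is Flox, the genotype it was set against. Neither the Cre line nor its promoter is given in the labels, and whether each library came from a separate animal is not stated, so p-values measure the spread between these libraries. Libraries were made from polyadenylated RNA, and levels are in FPKM, fragments per kilobase of exon at a fixed total of mapped fragments in each library.

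Mitochondrial DNA is transcribed from both strands as long precursors, and transfer RNAs between the genes mark where these are cut into single transcripts. Most mitochondrial mRNAs then receive short poly(A) tails, which for some of them also complete the stop codon. The proteins they encode join many nuclear-encoded subunits in complexes I, III and IV and in ATP synthase, so the respiratory chain depends on transcripts of both genomes.

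The ends of 3 members show the dependence on the tail, because their annotated lengths of 784, 1378 and 1144 bases each leave 1 base after the last whole codon. The last 30 bases of each on the plus strand are given 5′ to 3′ from the GRCm38 genome, at chrMT:9361-9390, chrMT:11515-11544 and chrMT:15259-15288, with that last base in capitals.
mt-Co3: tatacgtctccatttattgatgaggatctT
mt-Nd4: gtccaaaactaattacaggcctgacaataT
mt-Cytb: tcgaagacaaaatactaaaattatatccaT
The tail adds the adenines that turn this T into a stop codon. Such transcripts can be captured by an oligo(dT) selection, whereas a transfer RNA normally carries no such tail.

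Nuclear DNA holds a near-identical copy of part of the mitochondrial genome, and these copies are shown because they bear on 7 of the 12 mRNAs. The stretch chrMT:6390-11042 has a counterpart on the minus strand of chromosome 1, at chr1:24611535-24616188. This stretch is annotated there as 7 unprocessed pseudogenes. Gm28661, Gm10925, Gm28437, Gm10222 and Gm28439 matched mt-Co2, mt-Atp6, mt-Co3, mt-Nd4l and mt-Nd4 with 0 mismatches over the aligned bases, which for mt-Nd4 were 876 of 1378. The first 60 bases of mt-Co3 (chrMT:8607-8666, plus strand) and of Gm28437 (chr1:24613912-24613971, minus strand) are the same in every letter, so no capitals are set.
mt-Co3: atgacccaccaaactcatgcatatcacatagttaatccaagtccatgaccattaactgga
Gm28437: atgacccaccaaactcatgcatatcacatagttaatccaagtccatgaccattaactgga

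Gm28438 and Gm29216 each had 1 mismatch, over 345 bases of mt-Nd3 and over the last 483 bases of mt-Co1. A second copy of mt-Co1, Gm13340 on chromosome 2, had 37 mismatches and 97.6% identity. The lines below set the first 60 bases of mt-Nd3 (chrMT:9459-9518, plus strand) beside Gm28438 (chr1:24613060-24613119, minus strand), and bases 1063 to 1122 of mt-Co1 (chrMT:6390-6449, plus strand) beside Gm29216 (chr1:24616129-24616188, minus strand) and Gm13340 (chr2:22588526-22588585, minus strand). Capitals mark the positions that differ.
mt-Nd3: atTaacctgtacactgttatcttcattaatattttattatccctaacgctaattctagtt
Gm28438: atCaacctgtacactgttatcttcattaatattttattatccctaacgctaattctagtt
mt-Co1: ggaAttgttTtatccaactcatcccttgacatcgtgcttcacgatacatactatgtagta
Gm29216: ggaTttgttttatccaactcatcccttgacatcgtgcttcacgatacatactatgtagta
Gm13340: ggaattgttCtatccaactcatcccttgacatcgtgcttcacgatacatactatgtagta
Counted from 1 at the first base of each mitochondrial gene, with the mitochondrial base first and the copy's base last, the differences are T3C between mt-Nd3 and Gm28438, A1066T between mt-Co1 and Gm29216, and T1072C between mt-Co1 and Gm13340.

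Recovered depth was 14.6 to 19.2 M reads per library (M, mega), and all members together took 1.74% to 3.19% of the reads in Ad-GHRKO and 2.34% to 4.07% in Flox. The 95% Wilson interval of each such share was within 0.00901 percentage points of it, which covers counting error only. Ghr, the targeted gene, averaged 16.6 ± 2.71 FPKM in Ad-GHRKO and 93.5 ± 21.9 FPKM in Flox (SD, n = 5 each; limma log2 difference -2.41, adjusted p = 6.54e-05). Libraries Ad-GHRKO 1, Flox 3 and Flox 5 stood apart: 29 skeletal muscle marker genes took 18.7%, 7.42% and 10.7% of their reads. These genes took 0.244% in Ad-GHRKO 5, 0.0126% to 0.0186% in the other Ad-GHRKO libraries and 0.00678% to 0.0163% in the other Flox libraries, with Myh4, a fast muscle myosin, at 0 FPKM in Flox 4. Ad-GHRKO 5 also had the lowest depth and 34188 FPKM of the small RNA gene Gm23935, against 1474 to 7732 FPKM in the other 9 libraries. Across all 12785 tested genes, 99 were higher and 181 lower in Ad-GHRKO at an adjusted p under 0.05, and 141 were higher and 93 lower after rescaling every library to TPM, in which length-scaled values have the same sum in each library, which moved the median log2 difference of all genes to 0.15 from 0.04.

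All 12 mitochondrial mRNAs, and no other member, had a negative log2 difference (Ad-GHRKO minus Flox, on the log2(FPKM + 1) scale), between -0.89 for mt-Co3 and -0.13 for mt-Nd5, with a median of -0.55 against 0.04 over all tested genes, of which 44.3% had a negative difference. No member passed the adjusted threshold in limma: 0 of 15, where 2.19% of all tested genes did. The unadjusted p was under 0.05 for 6 of 15, all of them mRNAs with negative differences, against 8.49% of all genes in that direction. They were mt-Co2, mt-Atp6, mt-Co3, mt-Nd3, mt-Nd4 and mt-Cytb. All but mt-Cytb have a chromosome 1 copy of all or part of their sequence, and how shared reads were counted is not known. For 0 of 15 members did the groups separate without overlap, against 4.97% of all genes. With the 3 muscle-rich libraries left out, 0 of 15 passed (6.08% of all genes), 4 of 15 had an unadjusted p under 0.05 and a negative difference (11.8%), and the median mRNA difference was -0.51. With Ad-GHRKO 5 left out as well, a choice made after the data were seen, 1 of 15 passed (5.28% of all genes). It was mt-Co3 at -1.24, with a limma adjusted p of 0.0293. That fit lacks Ad-GHRKO 1 and 5, which had the highest summed mRNA levels of their group. It keeps Ad-GHRKO 2, 3 and 4, whose sums lay below every Flox library. The call and the separation given next therefore depend on this choice. In that comparison of 3 Ad-GHRKO with 3 Flox libraries, the groups separated for 7 of 15 members, mt-Rnr1 among them, all with lower values in Ad-GHRKO, as they did for 14.4% of all genes. In fat tissue, a lower level of these transcripts from fewer cells of a type and from less RNA per cell cannot be told apart.

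**Figure D1:**
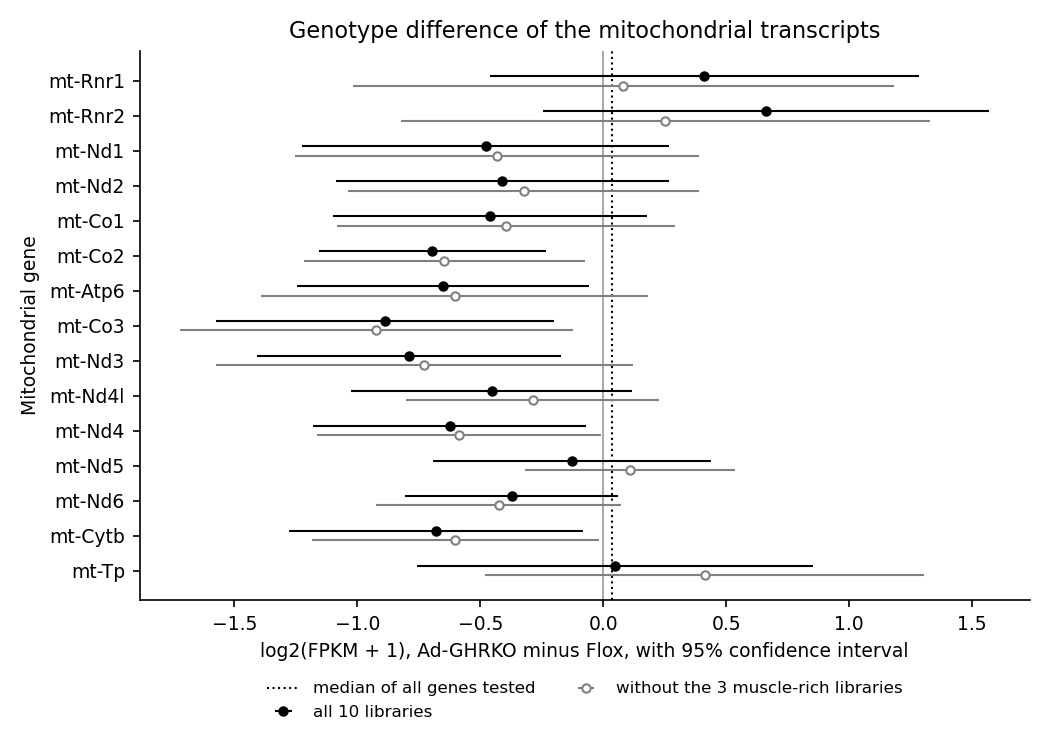
Log2 difference of each mitochondrial transcript, Ad-GHRKO minus Flox, with its 95% confidence interval from limma, using all 10 libraries (filled) or leaving out the 3 muscle-rich libraries (open); the dotted line is the median of all tested genes at 0.04. All 12 mRNAs lie left of 0 with all libraries, from -0.89 to -0.13, while mt-Rnr1, mt-Rnr2 and mt-Tp lie right of it.

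The summed level of the 12 mRNAs was 22417, 14805, 12767, 13993 and 23169 FPKM in Ad-GHRKO 1 to 5, against 17202, 24237, 30704, 23086 and 26711 FPKM in Flox 1 to 5. Ad-GHRKO 2, 3 and 4 lay below every Flox library, and Ad-GHRKO 1 and 5 lay inside the Flox range. Flox 1 was the lowest Flox library and lay below Ad-GHRKO 1 and 5. The same order held for single mRNAs: Ad-GHRKO 3 was the lowest of all 10 libraries for 9 of 12, and it was below every Flox library for 10 of 12. Ad-GHRKO 4 was below every Flox library for 9 mRNAs, Ad-GHRKO 2 for 7, Ad-GHRKO 5 for 2 and Ad-GHRKO 1 for 0. Flox 3 was above every Ad-GHRKO library for all 12 mRNAs, and the highest value came from Flox 3 for 7 mRNAs, from Flox 2 for 4 and from Flox 5 for 1.

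Within each group, the libraries with the largest shares of muscle reads had the highest mitochondrial mRNA sums. Ad-GHRKO 1 and 5, with 18.7% and 0.244% of muscle reads, had 22417 and 23169 FPKM, above the 12767 to 14805 FPKM of the other Ad-GHRKO libraries. Flox 3 and 5, with 7.42% and 10.7%, had 30704 and 26711 FPKM, above the 17202 to 24237 FPKM of the other Flox libraries. The size of the muscle share and of the sum did not follow one order: Flox 2, with 0.0163%, had 24237 FPKM, more than Ad-GHRKO 1 with the most muscle reads. Without the 3 muscle-rich libraries, the sums averaged 16183 ± 4732 FPKM in Ad-GHRKO (SD, n = 4) and 21508 ± 3774 FPKM in Flox (SD, n = 3), and they still overlapped. The part of muscle in the levels of the remaining libraries was not tested. A list of brown and beige adipocyte markers summed to 199, 44.95, 21.8, 37.3 and 27.3 FPKM in Ad-GHRKO 1 to 5, against 184, 117, 134, 64.7 and 234 FPKM in Flox 1 to 5. Cox8b, a subunit of complex IV that muscle also uses, is in that list. Without Cox8b, a choice made after the values were seen, the other 8 genes summed to 20.97, 27.0, 15.2, 21.8 and 12.9 FPKM in Ad-GHRKO 1 to 5, against 75.9, 30.4, 38.6, 18.2 and 69.8 FPKM in Flox 1 to 5. The groups then overlapped through Flox 4, and the part of these genes in the mitochondrial levels was not tested. Ucp1, the defining uncoupling protein of brown fat, had 0.1002 to 3.57 FPKM in Ad-GHRKO and 0.0343 to 9.76 FPKM in Flox. Of the 5 tested genes of that list, Kng2, a kininogen, was higher, at 4.79 ± 0.735 FPKM in Ad-GHRKO and 0.484 ± 0.259 FPKM in Flox (SD, n = 5 each; limma adjusted p = 6.54e-05). Cidea, a lipid droplet protein, was lower, at 6.91 ± 3.397 FPKM in Ad-GHRKO and 38.8 ± 22.8 FPKM in Flox (SD, n = 5 each; limma adjusted p = 0.0297). That call was lost without the 3 muscle-rich libraries, at a log2 difference of -2.09 (limma adjusted p = 0.0844). Cox8b passed in that fit, at a log2 difference of -2.48 (limma adjusted p = 0.0186). With all libraries Cox8b had -2.02 (limma adjusted p = 0.176). General adipocyte markers, among them the fatty acid carrier Fabp4 and the carbonic anhydrase Car3, summed to 7134 to 17102 FPKM in Ad-GHRKO and 12644 to 19098 FPKM in Flox, with 0 of 14 past the threshold. Macrophage markers, with Lyz2 and C1qb the most abundant, summed to 848 to 2322 FPKM in Ad-GHRKO and 576 to 1773 FPKM in Flox, with 0 of 8 past it. B cell and plasma cell, endothelial and epithelial markers likewise had 0 of 6, 0 of 6 and 0 of 1 tested genes past the threshold.

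**Figure D2:**
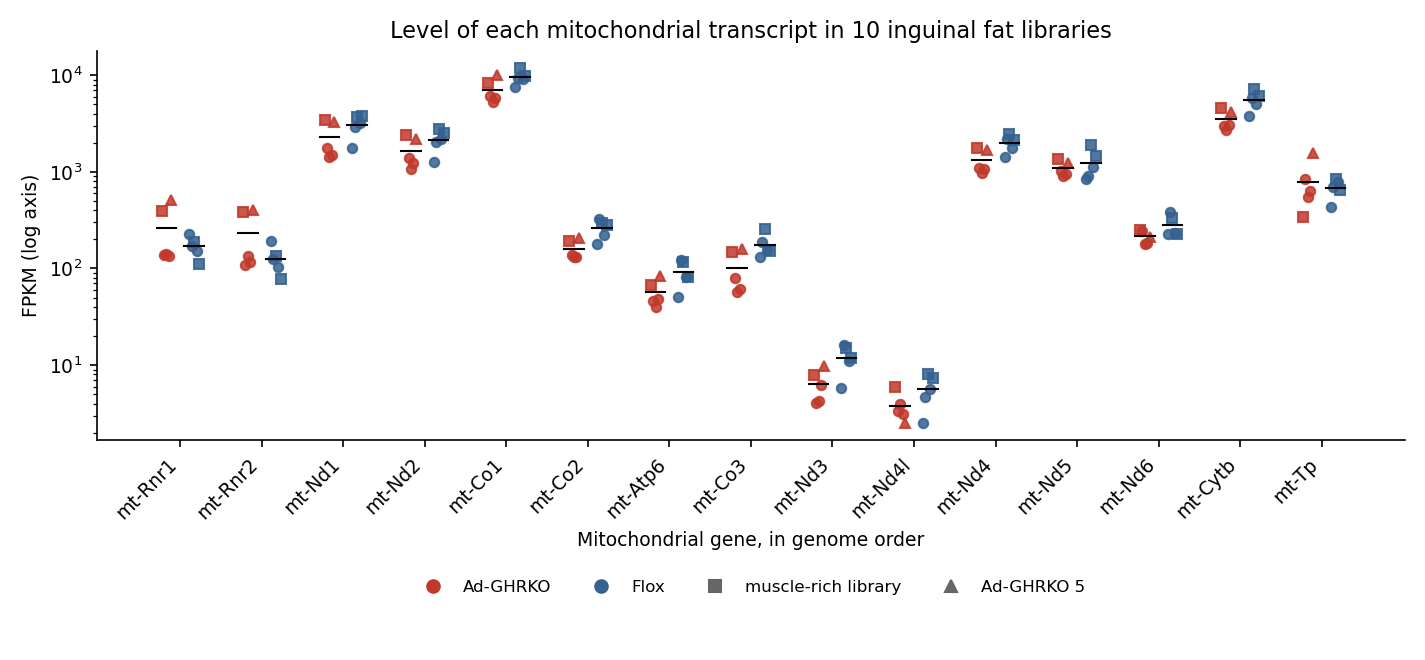
Level of each of the 15 mitochondrial transcripts in FPKM on a log axis, in genome order, with 1 point per library, Ad-GHRKO left of Flox in each pair and horizontal lines at the group means; squares mark the muscle-rich libraries and triangles Ad-GHRKO 5. The 5 mRNAs from mt-Co2 to mt-Nd4l stay at or below 326 FPKM, while mt-Co1 reaches 11728 FPKM in Flox 3.

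Complex I, the first proton pump of the chain, takes 7 subunits from the mitochondrial genome, and their median log2 difference was -0.45. mt-Nd1, the subunit at the joint of its arms, had 3460, 1781, 1439, 1499 and 3251 FPKM in Ad-GHRKO 1 to 5, against 1743, 2898, 3653, 3236 and 3785 FPKM in Flox 1 to 5. Flox 1 lay beside Ad-GHRKO 2, and Ad-GHRKO 1 and 5 lay among the upper Flox libraries (log2 difference -0.48, 95% confidence interval -1.22 to 0.27, limma adjusted p = 0.542). mt-Nd2, a proton-pumping membrane subunit, had 2380, 1375, 1077, 1228 and 2186 FPKM in Ad-GHRKO 1 to 5, against 1251, 2032, 2804, 2173 and 2529 FPKM in Flox 1 to 5. Its groups overlapped in the same way, with Flox 1 below Ad-GHRKO 2 (log2 difference -0.41, 95% confidence interval -1.09 to 0.27, limma adjusted p = 0.567).

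mt-Nd4, another pumping subunit, had 1762, 1090, 977, 1058 and 1681 FPKM in Ad-GHRKO 1 to 5, against 1437, 2174, 2465, 1754 and 2154 FPKM in Flox 1 to 5. Flox 1 was the single Flox library below Ad-GHRKO 5, and Flox 1 and 4 were below Ad-GHRKO 1. Its log2 difference was -0.62 (95% confidence interval -1.18 to -0.07, limma adjusted p = 0.248). mt-Nd5, the largest mitochondrial-encoded subunit, had 1371, 1023, 914, 943 and 1245 FPKM in Ad-GHRKO 1 to 5, against 852, 897, 1884, 1117 and 1454 FPKM in Flox 1 to 5. Here Flox 1 and 2 were the lowest of all libraries, and the log2 difference was -0.13 (95% confidence interval -0.69 to 0.44, limma adjusted p = 0.859). The sign of mt-Nd5 rested on Flox 3: the difference was 0.04 without Flox 3 and 0.11 without the 3 muscle-rich libraries.

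mt-Nd6, a complex I subunit and the one mRNA of the opposite strand, is known in mammals to lack a poly(A) tail. It had 252, 245, 180, 184 and 213 FPKM in Ad-GHRKO 1 to 5, against 228, 382, 336, 235 and 228 FPKM in Flox 1 to 5. Flox 1, 4 and 5 lay within the Ad-GHRKO range (log2 difference -0.37, 95% confidence interval -0.80 to 0.06, limma adjusted p = 0.397). The library kit marks strand, but whether the counting used it is not given in the sources used here, so reads of mt-Nd6 and of RNA from the other strand cannot be told apart. mt-Nd3 and mt-Nd4l, small membrane subunits, had 4.04 to 9.83 FPKM and 2.53 to 5.89 FPKM in Ad-GHRKO, against 5.80 to 16.3 FPKM and 2.55 to 8.13 FPKM in Flox. Their log2 differences of -0.79 and -0.45 (limma adjusted p = 0.186 and 0.434) rest on few reads, and mt-Nd4l shares bases with the start of mt-Nd4.

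Cytochrome b, encoded by mt-Cytb, is the mitochondrial subunit of complex III, which passes electrons to cytochrome c. It had 4535, 3004, 2705, 3020 and 4134 FPKM in Ad-GHRKO 1 to 5, against 3800, 5812, 7137, 5052 and 6131 FPKM in Flox 1 to 5. Flox 1 was the single Flox library within the Ad-GHRKO range. The log2 difference was -0.68 (95% confidence interval -1.28 to -0.08), with an unadjusted p of 0.0291 and an adjusted p of 0.241 in limma. Without the 3 muscle-rich libraries it was -0.60 (limma adjusted p = 0.177).

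Complex IV, cytochrome c oxidase, is built around 3 mitochondrial subunits, and their median log2 difference was -0.70. mt-Co1, its catalytic core, was the most abundant member in every library, with 8239, 6015, 5237, 5810 and 9994 FPKM in Ad-GHRKO 1 to 5, against 7521, 9384, 11728, 9041 and 9897 FPKM in Flox 1 to 5. Ad-GHRKO 5 was second to Flox 3, and Flox 1 lay below Ad-GHRKO 1 (log2 difference -0.46, 95% confidence interval -1.10 to 0.18, limma adjusted p = 0.485). mt-Co2, which takes electrons from cytochrome c, had 191, 139, 132, 132 and 208 FPKM in Ad-GHRKO 1 to 5, against 178, 326, 296, 224 and 281 FPKM in Flox 1 to 5. Flox 1 alone of the Flox libraries lay below any Ad-GHRKO library, and the log2 difference was -0.70 (95% confidence interval -1.16 to -0.23). Its adjusted p of 0.128 in limma was the lowest of the 15 members, and it was 0.049998 with the muscle score as a covariate, at a log2 difference of -0.66. mt-Co3, another core subunit, had 147, 80.6, 57.6, 61.4 and 160 FPKM in Ad-GHRKO 1 to 5, against 131, 190, 258, 155 and 151 FPKM in Flox 1 to 5. Ad-GHRKO 2, 3 and 4 lay below all Flox libraries and Ad-GHRKO 1 and 5 among them, at a log2 difference of -0.89 (95% confidence interval -1.57 to -0.20, limma adjusted p = 0.183).

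mt-Atp6 encodes the ATP synthase subunit that forms part of the proton channel. It had 67.3, 46.0, 39.7, 48.0 and 84.2 FPKM in Ad-GHRKO 1 to 5, against 50.8, 122, 118, 81.6 and 82.0 FPKM in Flox 1 to 5. Ad-GHRKO 5 lay above Flox 1, 4 and 5, and Flox 1 was close to the lower Ad-GHRKO libraries (log2 difference -0.65, 95% confidence interval -1.24 to -0.06, limma adjusted p = 0.259).

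The mitochondrial ribosomal RNAs did not share the sign of the mRNAs. mt-Rnr1, the 12S RNA of the small ribosomal subunit, had 391.9, 137, 140, 133 and 510 FPKM in Ad-GHRKO 1 to 5, against 227, 170, 189, 150 and 111.7 FPKM in Flox 1 to 5. mt-Rnr2, the 16S RNA of the large subunit, had 388, 108, 134, 117 and 405 FPKM in Ad-GHRKO 1 to 5, against 191, 126, 134, 104 and 78.3 FPKM in Flox 1 to 5. Ad-GHRKO 1 and 5 were the highest libraries for both genes and the other Ad-GHRKO libraries lay within the Flox range, so the groups overlapped. The log2 differences were 0.41 for mt-Rnr1 (95% confidence interval -0.46 to 1.28) and 0.66 for mt-Rnr2 (95% confidence interval -0.24 to 1.57), with limma adjusted p of 0.675 and 0.476. Without the 4 libraries with the most muscle reads, Ad-GHRKO 1, Ad-GHRKO 5, Flox 3 and Flox 5, the differences were -0.39 and -0.19. Leaving out Ad-GHRKO 1 alone gave 0.20 and 0.41, and leaving out Ad-GHRKO 5 alone gave 0.11 and 0.40.

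As a share of all mitochondrial reads, the rRNAs took 3.29%, 1.51%, 2.0%, 1.65% and 3.54% in Ad-GHRKO 1 to 5, against 2.21%, 1.14%, 0.969%, 1.02% and 0.660% in Flox 1 to 5. Flox 1, which had the lowest mRNA sum among Flox libraries, had the highest rRNA share among them and lay inside the Ad-GHRKO range. The other Flox libraries were below all Ad-GHRKO libraries. Within a library, the ratio of mt-Rnr2 to mt-Nd1, its neighbour on the same strand, was 0.112, 0.0605, 0.0934, 0.0778 and 0.124 in Ad-GHRKO 1 to 5, against 0.109, 0.0433, 0.0368, 0.0322 and 0.0207 in Flox 1 to 5. Again Flox 1 was the single Flox library within the Ad-GHRKO range. Because the libraries were selected for poly(A), these levels count only the rRNA that passed the selection, and how much of the rRNA did so was not tested.

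mt-Tp, the transfer RNA for proline, lies on the opposite strand between mt-Cytb and the control region, at chrMT:15356-15422. Its gene is shown 5′ to 3′ because its 67 bases are shorter than a typical sequenced fragment; no letter is set in capitals.
mt-Tp: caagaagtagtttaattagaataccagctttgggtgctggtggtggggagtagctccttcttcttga
It had 337, 834, 550, 633 and 1568 FPKM in Ad-GHRKO 1 to 5, against 429, 701, 852, 780 and 647 FPKM in Flox 1 to 5. Both the lowest and the highest values came from Ad-GHRKO, from libraries 1 and 5, and the log2 difference was 0.05 (95% confidence interval -0.76 to 0.85, limma adjusted p = 0.964). Its sign turned to -0.02 when Ad-GHRKO 2 was left out, -0.25 when Ad-GHRKO 5 was and -0.11 when Flox 1 was. Relative to mt-Cytb, the nearest mRNA, mt-Tp had ratios of 0.0743, 0.278, 0.203, 0.210 and 0.379 in Ad-GHRKO 1 to 5, against 0.113, 0.121, 0.119, 0.154 and 0.106 in Flox 1 to 5. Ad-GHRKO 1 lay below every Flox library and the other 4 Ad-GHRKO libraries above every one. Whether these reads came from the transfer RNA, its precursor or the other strand was not tested.

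Shares of the mitochondrial reads overlapped between the groups for mt-Co1, mt-Nd1 and mt-Nd5. mt-Co1 took 42.3% to 48.5% of mitochondrial reads in Ad-GHRKO and 43.8% to 49.7% in Flox, and mt-Nd1 took 7.57% to 11.01% in Ad-GHRKO and 7.13% to 10.4% in Flox. For mt-Cytb alone of the 15 members the shares did not overlap, at 14.9% to 18.2% in Ad-GHRKO and 18.6% to 20.96% in Flox. It was picked out after all shares had been seen, so no test is given. By their levels, 4.97% of all tested genes did not overlap. mt-Nd5 took 7.14% to 9.61% in Ad-GHRKO and 5.15% to 8.45% in Flox. Of the 105 ratios between any pair of members, 1 separated the groups, 0.952% of them: mt-Nd5 to mt-Cytb. It was 0.302, 0.341, 0.338, 0.312 and 0.301 in Ad-GHRKO 1 to 5, against 0.224, 0.154, 0.264, 0.221 and 0.237 in Flox 1 to 5, and it was picked out after all ratios had been seen, so no test is given. Without the 3 muscle-rich libraries, 16 of the 105 ratios separated the 4 Ad-GHRKO from the 3 Flox libraries, 15.2% of them, and 9 of these 16 involved mt-Tp. The levels of 26.8% of all tested genes separated the groups in the same comparison, and the ratios reuse the same 15 members. mt-Nd4 to mt-Nd5 was then 1.07 to 1.35 in Ad-GHRKO and 1.57 to 2.42 in Flox, and mt-Co1 to mt-Nd4 was 5.36 to 5.95 in Ad-GHRKO and 4.32 to 5.23 in Flox. mt-Nd4 to mt-Cytb, by contrast, had 0.351 to 0.406 in Ad-GHRKO and 0.345 to 0.378 in Flox.

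**Figure D3:**
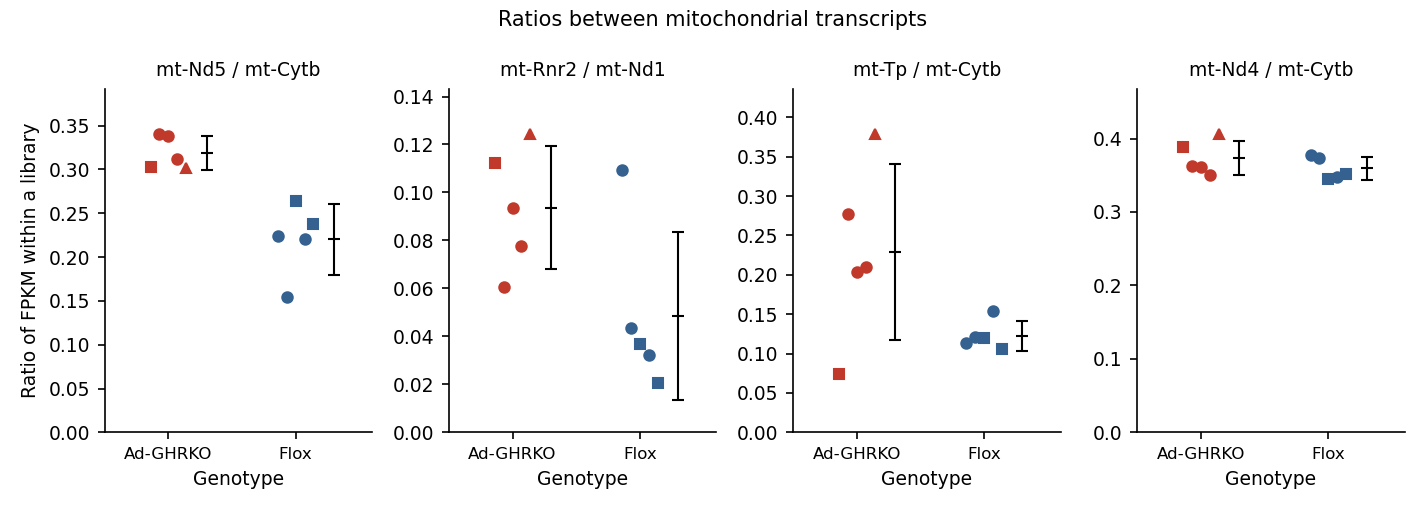
Ratios of FPKM between members within each library, with Ad-GHRKO left of Flox, 1 point per library, squares for the muscle-rich libraries, a triangle for Ad-GHRKO 5, and mean ± SD bars (n = 5 each). The groups are apart for mt-Nd5 over mt-Cytb, at 0.301 to 0.341 in Ad-GHRKO and 0.154 to 0.264 in Flox, and overlap in the other 3 panels.

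Of the 12 mRNAs, 5 share nearly all of their sequence with nuclear copies. Of all runs of 100 bases in mt-Co2, mt-Atp6, mt-Co3, mt-Nd3 and mt-Nd4l, 97.6% to 99.9% also occur in an annotated nuclear gene, and these 5 mRNAs had 2.53 to 326 FPKM over all libraries. The other 7 had 180 to 11728 FPKM: mt-Nd4 shares 60.8% of its runs, mt-Co1 30.8%, mt-Nd2 3.19%, and mt-Nd1, mt-Nd5, mt-Nd6 and mt-Cytb share 0%. The median log2 difference was -0.70 for the 5 and -0.46 for the 7. How reads that match more than 1 place were counted is not given in the sources used here, so the levels of the 5 cannot be compared with those of the 7. The authors' table gave the reads of these sequences partly to the copies: of the reads of mt-Co2 and Gm28661 together, mt-Co2 held 60.8% to 67.2% in Ad-GHRKO and 62.6% to 68.0% in Flox. mt-Co3 held 49.9% to 57.9% of the reads shared with Gm28437 in Ad-GHRKO and 50.9% to 63.4% in Flox. With Gm10925, mt-Atp6 held 34.0% to 38.2% in Ad-GHRKO and 35.0% to 43.9% in Flox. With Gm28438, mt-Nd3 held 23.1% to 33.3% in Ad-GHRKO and 24.8% to 41.1% in Flox. With Gm10222, mt-Nd4l held 47.5% to 62.1% in Ad-GHRKO and 46.2% to 67.6% in Flox. mt-Co1, of which Gm29216 holds the last 483 bases, held 99.6% on average in Ad-GHRKO and 99.5% in Flox.

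**Figure D4:**
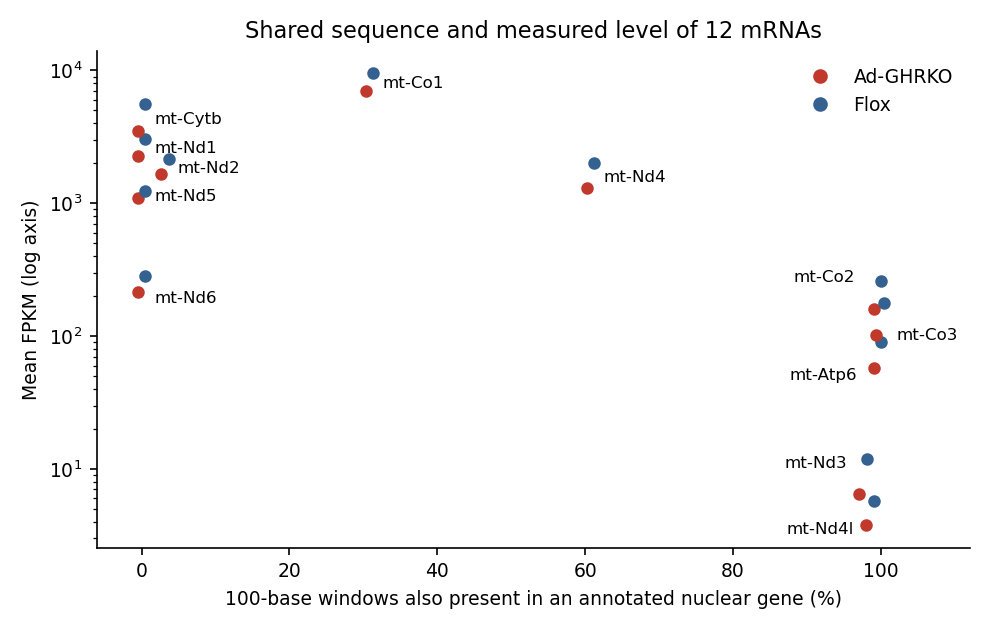
Mean FPKM (log axis) of the 12 mRNAs against the percentage of their 100-base runs that also occur in an annotated nuclear gene, with Ad-GHRKO and Flox means as separate points (n = 5 each). The 5 mRNAs at 97.6% to 99.9% lie below the other 7 except for mt-Nd6, which overlaps mt-Co2.

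The copies had differences of the same sign as the members they match. Gm28437 had 107, 58.9, 54.9, 61.6 and 120 FPKM in Ad-GHRKO 1 to 5, against 94.0, 183, 149, 116 and 132 FPKM in Flox 1 to 5, the same low libraries as for mt-Co3 (log2 difference -0.78, limma adjusted p = 0.160). Over the 7 chromosome 1 copies, the log2 differences ran from -0.78 to -0.15, and 0 of 7 passed the threshold. Adding the reads of each copy to its mitochondrial gene left 0 of 15 members past the threshold and a median mRNA difference of -0.54. Apart from 1 differing base each in Gm28438 and Gm29216, reads from either place carry the same letters over the aligned bases. The copies' values are therefore not taken as a separate measurement.

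The nuclear partners of these proteins were measured in the same libraries. Summed over 77 nuclear subunit genes of complexes I, III and IV and ATP synthase, the level was 6856, 5969, 4821, 5984 and 4226 FPKM in Ad-GHRKO 1 to 5, against 8173, 9334, 7258, 7859 and 9133 FPKM in Flox 1 to 5. All 5 Ad-GHRKO libraries lay below all 5 Flox libraries, with and without Cox6a2, Cox7a1 and Cox8b, isoforms that muscle uses. Taken singly, the sums of complexes III and IV separated the groups. Those of complex I overlapped (Ad-GHRKO up to 2395 FPKM, Flox from 2307 FPKM), as did those of ATP synthase (up to 1400 FPKM and from 1335 FPKM). The ratio of the mitochondrial mRNA sum to the sum over all 77 nuclear genes was 3.27, 2.48, 2.65, 2.34 and 5.48 in Ad-GHRKO 1 to 5, against 2.10, 2.60, 4.23, 2.94 and 2.92 in Flox 1 to 5. The highest ratio was that of Ad-GHRKO 5, which had the lowest nuclear sum and a mitochondrial sum near the Flox median, and the groups overlapped. Without the 3 muscle-rich libraries the ratio averaged 3.24 ± 1.502 in Ad-GHRKO (SD, n = 4) and 2.55 ± 0.419 in Flox (SD, n = 3).

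**Figure D5:**
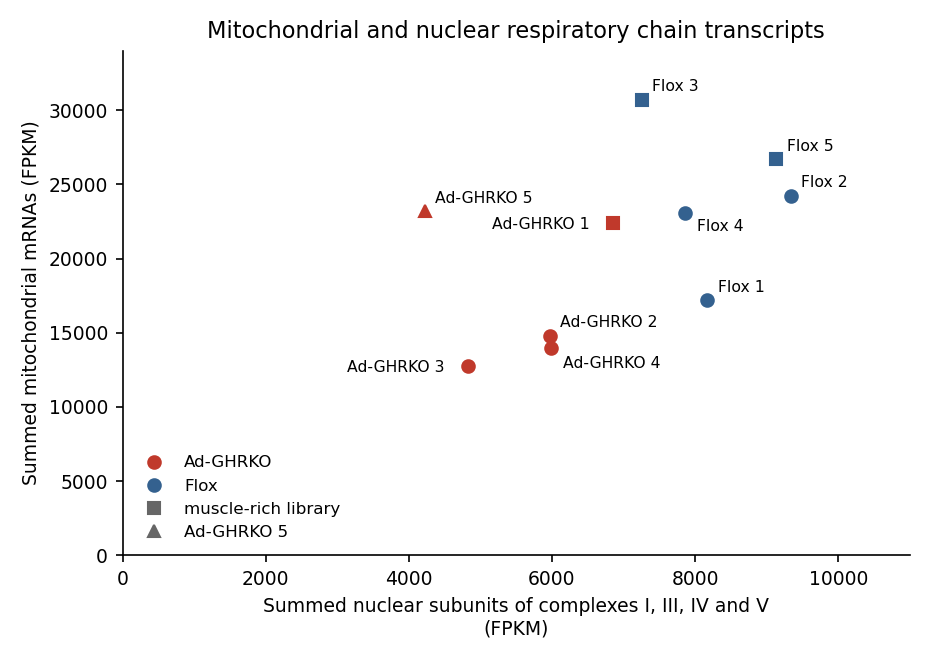
Summed level of the 12 mitochondrial mRNAs against the summed level of 77 nuclear subunits of the same complexes, in FPKM, with 1 point per library. Along the horizontal axis the Ad-GHRKO libraries, up to 6856 FPKM, lie left of the Flox libraries, from 7258 FPKM, while on the vertical axis Ad-GHRKO 1 and 5 lie among the Flox libraries.

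Single nuclear subunits passed the limma threshold, at 1 of 36 for complex I, 0 of 4 for complex II, 2 of 9 for complex III, 3 of 14 for complex IV and 1 of 16 for ATP synthase, all of them lower, against 1.42% of all genes that were lower. The medians of these lists were -0.50, -0.41, -0.65, -0.66 and -0.47. Cox5b, a nuclear subunit of complex IV, averaged 72.1 ± 11.7 FPKM in Ad-GHRKO and 124 ± 9.19 FPKM in Flox (SD, n = 5 each; limma adjusted p = 0.0196). Uqcrh, the hinge protein of complex III, averaged 75.3 ± 10.1 FPKM in Ad-GHRKO and 128 ± 17.3 FPKM in Flox (SD, n = 5 each; limma adjusted p = 0.0246). Ndufv3, Uqcrq, Cox4i1, Cox6b1 and Atp5k had limma adjusted p of 0.0385 to 0.0470. These calls were close to the threshold: Cox5b lost its call without Ad-GHRKO 3, Flox 2 or Flox 4 (limma adjusted p up to 0.0699), and Uqcrh without Ad-GHRKO 2, 3, 4 or 5 or Flox 1, 2 or 4 (up to 0.0797). The others lost theirs in 8 or 9 of the 10 fits that left out 1 library, with adjusted p up to 0.133. Scaling also ended calls: after TPM rescaling Uqcrh kept its call (limma adjusted p = 0.0460), while Cox5b had 0.0575 and the other 5 had 0.0777 to 0.104. With median ratio scaling Ndufv3 alone kept its call (limma adjusted p = 0.0279), and the other 6 had 0.0562 to 0.0845. With no filter on low values Cox5b alone kept its call (limma adjusted p = 0.0415). With the replicate number as a block, all of these calls were lost (limma adjusted p of 0.0823 to 0.145). Sdhb and Sdhd of complex II, which has no mitochondrial-encoded subunit, had log2 differences of -0.53 and -0.48 with limma adjusted p of 0.0921 and 0.139. Without the 3 muscle-rich libraries the lower calls were 15 of 36, 0 of 4, 5 of 9, 7 of 14 and 9 of 16, against 3.12% of all genes that were then lower, while the mitochondrial members stayed at 0 of 15. Whether the mitochondrial and nuclear subunits differ in their response was not tested.

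The nuclear genes that copy, transcribe and process mitochondrial DNA had list medians between -0.11 and 0.14. Of 16 tested genes of mitochondrial DNA maintenance, 0 passed the limma threshold and the median log2 difference was 0.04. Mgme1, a nuclease for the ends of mitochondrial DNA, was nearest, at 4.996 ± 0.540 FPKM in Ad-GHRKO and 7.20 ± 0.835 FPKM in Flox (SD, n = 5 each; limma adjusted p = 0.0734). Twnk, the replicative helicase, had a log2 difference of -0.28 (limma adjusted p = 0.277). The 10 tested genes of mitochondrial transcription had a median log2 difference of -0.11, and 8 of the 10 were negative. All genes of that list summed to 53.5 to 61.5 FPKM in Ad-GHRKO and 65.8 to 79.7 FPKM in Flox, without overlap. This separation rested on 1 gene, Mrpl12, with 8.62 to 18.7 FPKM in Ad-GHRKO and 21.3 to 35.6 FPKM in Flox. Without Mrpl12 the sums of the groups overlapped. Of the 10, 1 passed and was lower: Mrpl12, a ribosomal protein reported in human cells to bind the mitochondrial RNA polymerase, averaged 14.0 ± 3.68 FPKM in Ad-GHRKO and 27.0 ± 5.51 FPKM in Flox (SD, n = 5 each; log2 difference -0.92, limma adjusted p = 0.0383). It kept its call in 2 of the 10 fits that left out 1 library, those without Ad-GHRKO 1 or Flox 1, with adjusted p up to 0.104 in the other 8. It also lost its call with no filter on low values, TPM rescaling, median ratio scaling, quantile normalization, and totals without mitochondrial genes and muscle markers (limma adjusted p of 0.0562 to 0.0955). A fit with the replicate number as a block ended the call as well (limma adjusted p = 0.166). Tfam, which packages mitochondrial DNA and starts its transcription, averaged 6.16 ± 0.598 FPKM in Ad-GHRKO and 6.64 ± 0.575 FPKM in Flox (SD, n = 5 each; log2 difference -0.10).

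Of 28 genes of mitochondrial RNA processing and stability, 0 passed, with a median of -0.05. Mrm2, which methylates the large rRNA, and Hsd17b10, part of the enzyme that cuts the 5′ ends of transfer RNAs, were nearest, with log2 differences of -0.41 and -0.48 and limma adjusted p of 0.133 and 0.179. Lrpprc, which stabilises mitochondrial mRNAs, averaged 6.06 ± 1.29 FPKM in Ad-GHRKO and 5.42 ± 0.575 FPKM in Flox (SD, n = 5 each; log2 difference 0.12). Of 11 regulators of mitochondrial biogenesis, 0 passed, with a median of 0.14. The coactivator Ppargc1b had a log2 difference of -0.68 (limma adjusted p = 0.0629), and its adjusted p was 0.0475 without the 3 muscle-rich libraries. Ppara, a nuclear receptor for fatty acids, had a log2 difference of -0.29 (limma adjusted p = 0.259).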

How the data were processed

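The deposited table gives FPKM per gene, a unit the authors computed from mapped reads. Its column names matched the sample titles. The submitters' processing notes name GRCm39. However, 99.6% of the gene identifiers found in GENCODE M21 have its GRCm38 coordinates, so coordinates are given as GRCm38. No label or file header names the aligner or the counter, and their handling of strand and of reads with several matches is likewise not given in the sources used here. Multiplying FPKM by exon length gave whole reads, within 0.01, for 99.2% to 99.3% of values per library.

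The test was that of limma 3.58.1 (R 4.3.3), two-sided and with its trend option, applied to log2(FPKM + 1) of the 12785 genes that reached 1 FPKM in 5 or more libraries. Adjustment was by Benjamini-Hochberg over all 12785, with a threshold of 0.05. This scale understates differences of low genes. limma voom on the recovered reads called 271 genes. Copies were found with BLAST 2.17.0 against M21 transcripts, and sequences were read from the GRCm38 genome. The limma script was tested on simulated data. Python 3.11.15, pandas 2.3.3 and matplotlib 3.10.9 were used for tables and plots.

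All members are named. The other named genes are Ghr, up to 4 called genes per nuclear list by smallest p (or the 2 with the smallest p where none was called), and up to 2 most abundant genes per marker list, of which not all are printed. Tfam, Lrpprc, Cox6a2, Cox7a1, Cox8b, Ucp1, Kng2 and Gm23935 were added after their values were seen. The members and lists were chosen with earlier results of these data known. The plan assumed 13 mitochondrial mRNAs, and the table as used here holds 12. Alternatives were pseudocounts, filters, scalings, a muscle covariate, a replicate block, voom and left-out libraries. Replicate numbers were not taken as pairs.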

Additional observations from a re-analysis of the deposited data

Results flagged for a closer look

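Among 62 checks of 5 libraries each for a single distant value, 2 stood out, where chance gives about 1 in 20. The ratio of mt-Rnr2 to mt-Nd1 in Flox 1 was 0.109, far above the other Flox libraries at 0.0207 to 0.0433. The skeletal muscle markers took 18.7% of the reads of Ad-GHRKO 1, far above the other Ad-GHRKO libraries at 0.0126% to 0.244%.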

How the results depend on the processing

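The number of called members was 1 with the muscle score as a covariate and 1 without the 4 libraries with the most muscle reads. It was 0 in all other alternatives. Of 359 alternative values of single members, 348 kept direction and side of the threshold, 9 changed sign and 2 passed it. mt-Nd5 turned to 0.12 under quantile normalization, 0.11 with the 3 muscle-rich libraries left out, 0.016 without the 4 libraries and 0.040 without Flox 3. mt-Tp turned to -0.02, -0.25 and -0.11 without Ad-GHRKO 2, Ad-GHRKO 5 and Flox 1 (range with 1 library left out -0.25 to 0.31), and mt-Rnr1 and mt-Rnr2 to -0.39 and -0.19 without the 4 libraries. The median mRNA difference was -0.26 under quantile normalization, and the log2 ratio of the summed levels was -0.063 there, against -0.48. That method gives genes of the same rank the same value in every library. The most abundant members, mt-Co1 and mt-Cytb, had differences of -7.7e-16 and -0.00026 there, so this sum could show little of a difference. Leaving out 1 library each gave medians of -0.70 to -0.47 and ratios of -0.61 to -0.39. The number of called genes, 280 with all libraries, was 117 with no filter, 531 with median ratio scaling, 565 with quantile normalization, 514 with totals without mitochondrial genes and muscle markers, 825 with the muscle covariate, 777 without the 3 and 675 without the 4 libraries. It was 116 to 1185 with 1 library left out, the most without Ad-GHRKO 1. Same-numbered libraries deviated together in no constant direction (correlations from -0.49 to 0.39). This cannot decide whether the numbers mark pairs, because differences in muscle content also enter these correlations. A replicate block gave 85 called genes and 0 members. The fit without 4 libraries and the fit with copy reads added were chosen after seeing the data. For the changes listed here the cause was not tested. Low levels limit mt-Nd3 and mt-Nd4l, and unknown handling of shared reads limits the 5 members with full copies.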
